A study of Homo sapiens with 11 samples.

Results

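FGFBP1, TNS4, FAM83A, LY6D and SLC2A1, genes of the basal-like transcriptional program of pancreatic cancer that do not encode keratins, were examined in peak lists from chromatin immunoprecipitation followed by sequencing (ChIP-seq). They are 5 of the 25 genes of the program and 5 of 20037 protein-coding genes in the annotation. For each gene, every peak was taken whose summit lay within the gene's GRCh38 span or up to 50 kb to either side. These windows measured between 101.658 and 133.516 kb and held 12 of the 8885 MYRF elements of the study. An element is a set of overlapping peaks (at least 1 bp) from the 4 MYRF libraries. The study held 10 peak lists in 5 groups of 2 libraries, all from human pancreatic ductal adenocarcinoma lines. MYRF was precipitated with a home-made antibody from CFPAC1, grown in IMDM, and from HPAF2, grown in RPMI medium, both as the original lines. FOS and H3K27ac were mapped in a CFPAC1 clone that had been infected with the lentiCRISPRv2 plasmid and isolated by dilution, called the control clone here. H3K27ac was also mapped in a CFPAC1 clone carrying wt Cas9 and a guide against MYRF, called the knockout clone.

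Each clone is a single isolate of a dilution, so the clone and the loss of MYRF cannot be told apart in the H3K27ac comparison. Nothing in a peak list measures MYRF protein or the edited sequence, so the knockout was not checked here. FOS was mapped in 1 line only, and in a clone rather than in the original line used for MYRF. Whether the replicates came from separate cultures is not given in the labels, and their spread may be technical. Peak lists hold no expression values, so whether the lines express the program was not measured. With 2 libraries a group, no test over libraries was run. Values are therefore given for both libraries, and a difference is described by whether the groups overlap.

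The basal-like program is one of the main expression states of pancreatic cancer and shares many genes with squamous epithelium. FGFBP1 encodes a secreted carrier that releases fibroblast growth factors from the extracellular matrix. TNS4 is a tensin of focal adhesions that takes part in cell motility, and FAM83A is an adaptor that binds casein kinase 1 and acts in growth factor signalling. LY6D is a glycolipid-anchored surface protein known as a marker of stratified epithelium, and SLC2A1 (GLUT1) is the glucose transporter of many cancer cells. MYRF, a transcription factor best known from myelination, is made as a membrane protein whose DNA-binding part is released by self-cleavage. FOS pairs with JUN proteins to form AP-1, which binds many enhancers of epithelial cells. H3K27ac is a histone acetylation found at active regulatory DNA.

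The promoters of FGFBP1 and SLC2A1 are shown because they are the members with a RefSeq promoter sequence at hand (assembly GRCh38.p14) and because they show where MYRF was not listed. Each run is the 250 bases before the gene start, read 5′ to 3′ on the minus strand. FGFBP1 lies at chr4:15938741-15938990 and SLC2A1 at chr1:42958869-42959118.
FGFBP1: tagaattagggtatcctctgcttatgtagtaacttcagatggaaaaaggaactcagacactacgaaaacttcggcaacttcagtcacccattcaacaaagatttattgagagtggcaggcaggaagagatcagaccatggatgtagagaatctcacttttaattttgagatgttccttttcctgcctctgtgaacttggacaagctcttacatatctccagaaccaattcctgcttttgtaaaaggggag
SLC2A1: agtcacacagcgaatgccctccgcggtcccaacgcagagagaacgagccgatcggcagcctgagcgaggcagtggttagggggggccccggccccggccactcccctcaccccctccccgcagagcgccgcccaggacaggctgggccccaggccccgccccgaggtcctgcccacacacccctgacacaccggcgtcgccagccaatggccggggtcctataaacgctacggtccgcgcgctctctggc
The FGFBP1 stretch has 40.8% G and C and the SLC2A1 stretch 72.4%. No MYRF or FOS peak covered a base of either. The FGFBP1 stretch lay entirely within H3K27ac peaks in all 4 libraries (250 bp of 250 in each). In SLC2A1, H3K27ac peaks covered 42 and 39 bp in the control clone, against 76 and 125 bp in the knockout clone. A search of both strands for TGANTCA, an AP-1 motif, and for CTGGCAC or CTGGTAC, the core given for MYRF, found 0 matches in either promoter, so no letters are in capitals. Over 22180 promoter stretches of the same length, 5.35% held the AP-1 motif and 5.69% the MYRF core. Absence of these letters says nothing of binding elsewhere.

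All lists had a similar median fold enrichment (5.16 to 5.57), and the 4 MYRF lists held 3702 to 4743 peaks. The lists carry no read counts, so depth is unknown. Fold enrichment is the authors' own value for each peak. The labels name no control for the CFPAC1 peak calling. Ranks were therefore taken within a list, and a percentile is the share of a list's peaks with a fold enrichment at or below that of the peak. H3K27ac lay within 1 kb of an end of all 6 epithelial markers (EPCAM, KRT19, KRT8, KRT18, CDH1, SOX9) in each of the 4 libraries. Fibroblast markers had it at 1, 1, 1 and 4 of 5 (control replicates 1 and 2, knockout replicates 1 and 2), endothelial markers at 1, 0, 1 and 1 of 3, and acinar markers at 1, 2, 1 and 1 of 4. Markers of other cell types went both ways: COL1A1, CD3E and CD14 had it in all 4 libraries, and PTPRC, DCN, CDH5, VWF, PRSS1 and CTRB1 in none. The part of the uneven fibroblast count of knockout replicate 2 in the H3K27ac results was not tested.

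All 5 genes had MYRF nearby in CFPAC1, and 3 of them also in HPAF2. A MYRF peak in both CFPAC1 libraries was found in the windows of 5 of 5 members, against 16.6% of all protein-coding genes. In HPAF2 it was found for FGFBP1, TNS4 and FAM83A, 3 of 5, against 16.7% of genes. The same 3 had an element present in all 4 MYRF libraries, against 9.2% of genes. FOS peaks in both libraries were found for 5 of 5 members, where 67.7% of all genes had one. Without HPAF2 replicate 1, HPAF2 MYRF and shared elements were each found for 5 members. Within 5 kb of the genes, CFPAC1 MYRF was found for 3, HPAF2 MYRF for 1 and FOS for 3, and with peaks of a -log10 q of at least 10, MYRF for 3 in CFPAC1 and 1 in HPAF2. The members were put together with earlier results of these lists known, so these counts are descriptions. Of the 12 elements, 8 were present in both CFPAC1 libraries, 4 in both HPAF2 libraries and 4 in all MYRF libraries. Each of the 12 lay nearer to an end of the member than to an end of any other protein-coding gene, and each was overlapped by H3K27ac peaks in all 4 H3K27ac libraries.

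**Figure D1:**
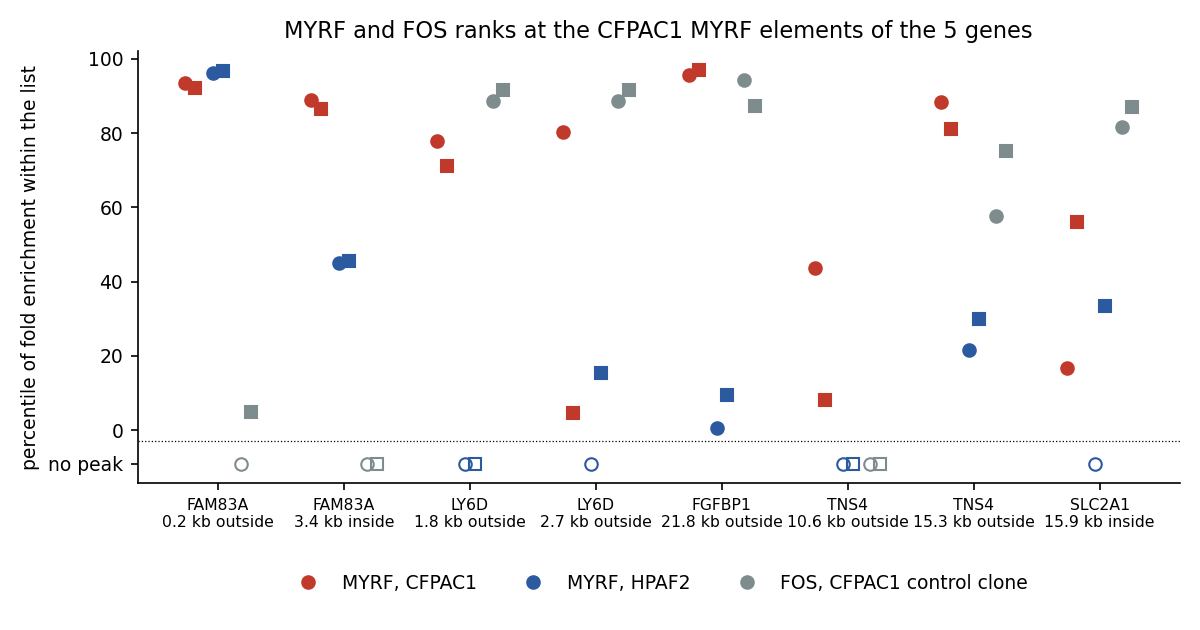
Percentile of fold enrichment within its own list (vertical axis) of MYRF in CFPAC1, MYRF in HPAF2 and FOS at the 8 elements found in both CFPAC1 libraries, with circles for replicate 1, squares for replicate 2 and open symbols where the list has no peak. FGFBP1 combines CFPAC1 percentiles of 95.7 and 96.9 with HPAF2 percentiles of 0.65 and 9.57, and only the outer FAM83A element is high in both lines.

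The FGFBP1 element was among the strongest MYRF sites of CFPAC1 and among the weakest of HPAF2. It lay at chr4:15913381-15914087 (GRCh38), 21802 bp beyond the lower-coordinate end of the gene, which is its downstream side, in a stretch without an annotated protein-coding gene. Its fold enrichment was 16.7 and 20.2 in the CFPAC1 replicates, at percentiles 95.7 and 96.9, ranks 205 of 4743 and 128 of 4041. In HPAF2 it was 2.74 and 3.68, at percentiles 0.65 and 9.57, ranks 3679 of 3702 and 3913 of 4326. Both CFPAC1 libraries were high and both HPAF2 libraries were near the bottom of their lists. The gap between the mean percentiles of the lines was 91.2 points. This was the highest of 1282 elements found in all 4 MYRF libraries. Their gaps had a median of 1.44 points, quartiles of -12.1 and 14.8 and a range from -91.2 to 91.2. The ranking leaves out CFPAC1 elements without a peak in both HPAF2 libraries, which have no such gap and may differ more between the lines. In all, 2789 elements were present in both CFPAC1 libraries. Of the 1282 elements found in all 4 MYRF libraries, 168 were at or above percentile 95 in both CFPAC1 libraries. Among these 168, the FGFBP1 element was the 1 (0.595%) below percentile 10 in both HPAF2 libraries. Both limits were chosen after its values were seen. Strong CFPAC1 elements without a peak in both HPAF2 libraries are not among the 168. A second element, 29230 bp beyond the same end, had a MYRF peak in CFPAC1 replicate 1 only (fold 6.52, percentile 72.4).

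**Figure D2:**
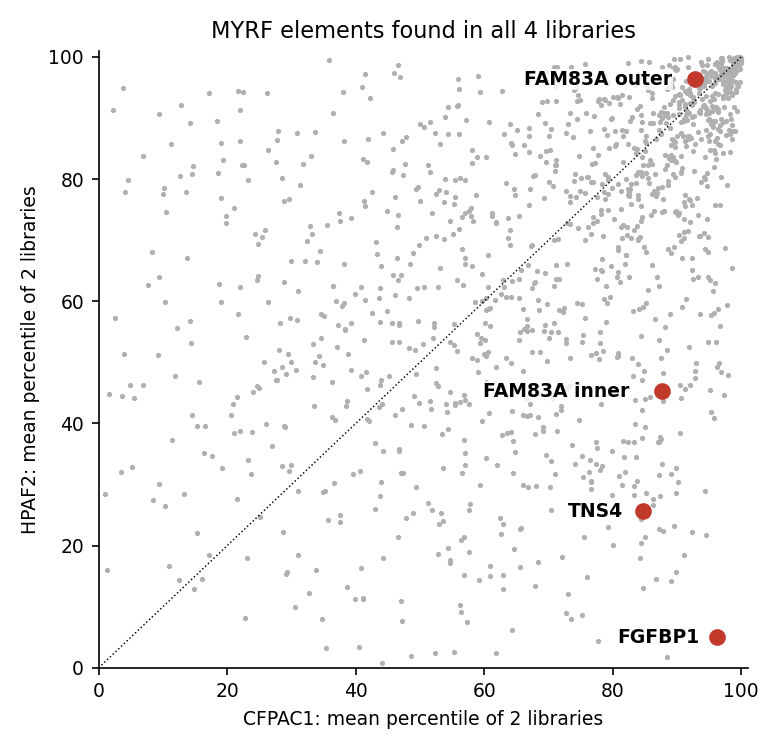
Mean percentile of fold enrichment in the 2 CFPAC1 libraries (horizontal axis) against that in the 2 HPAF2 libraries (vertical axis) for the 1282 MYRF elements found in all 4 libraries (grey), with the 4 elements near the 5 genes in red and equal ranks on the dotted line. FGFBP1 sits at 96.3 and 5.11, TNS4 at 84.7 and 25.7, and the outer FAM83A element at 92.8 and 96.4.

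TNS4 had the most MYRF elements, 5, of which 1 was shared by the lines. This shared element lay at chr17:40516586-40517260, 15300 bp beyond the upper-coordinate end of TNS4. It had folds of 9.76 and 8.09 in CFPAC1 (percentiles 88.2 and 81.1) and of 4.17 and 4.55 in HPAF2 (percentiles 21.6 and 29.9). The CFPAC1 and HPAF2 percentiles did not overlap, and the gap of 59.0 points was reached by 30 of the 1282 shared elements (2.34%). A weaker element, 10629 bp beyond that end, was present in both CFPAC1 libraries (4.87 and 3.61, percentiles 43.7 and 8.07) and in neither HPAF2 library. The other 3 elements had a MYRF peak in 1 CFPAC1 library each, at folds from 3.14 to 4.16 and percentiles from 2.85 to 19.3.

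FAM83A carried 2 elements, and they stood differently in HPAF2. The gene spans positions 123179047 to 123210079 of chromosome 8 and its outer element lay 162 bp beyond the lower end. The outer element had folds of 13.3 and 12.6 in CFPAC1 (percentiles 93.4 and 92.1) and of 19.3 and 21.3 in HPAF2 (percentiles 96.1 and 96.6). It ranked 313 and 319 in the CFPAC1 lists and 144 and 147 in the HPAF2 lists, so it was near the top of all 4. The inner element, 3409 bp from the same end and inside the gene, had folds of 10.04 and 9.45 in CFPAC1 (percentiles 89.0 and 86.4) and of 5.10 and 5.19 in HPAF2 (percentiles 45.1 and 45.5). Its gap of 42.4 points was reached by 110 of 1282 shared elements (8.58%), whereas that of the outer element was -3.60. Ranked by -log10 q, the gap of the inner element was 12.9 points. Both HPAF2 percentiles of the outer element were above both CFPAC1 ones, and the inner element had the opposite order. The exon or intron of the inner element was not analysed here.

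**Figure D3:**
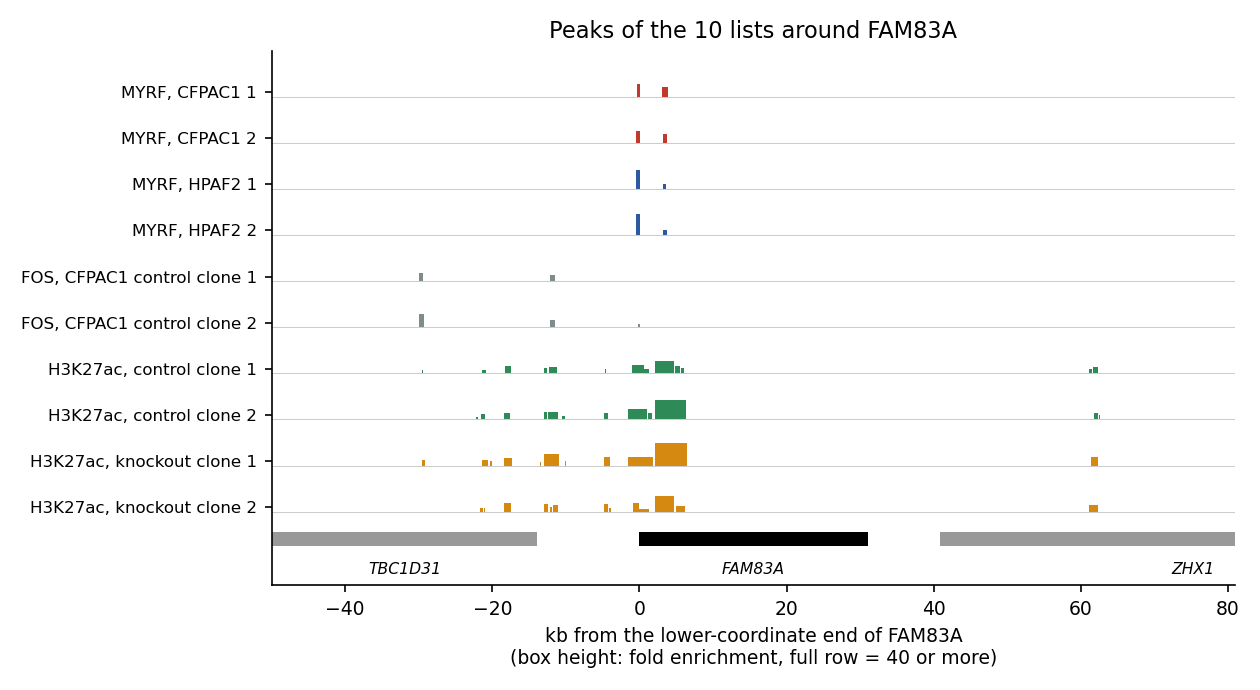
Peaks of the 10 lists (rows) around FAM83A in kb from the lower-coordinate end of the gene, with box height showing the fold enrichment and annotated protein-coding genes in the lowest row. The 2 MYRF elements appear in all 4 MYRF rows, the inner one lower in HPAF2 (5.10 and 5.19), and no FOS peak found in both libraries lies under either.

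LY6D and SLC2A1 had no MYRF element in both HPAF2 libraries. The first LY6D element lay 1784 bp beyond the upper end of the gene (chromosome 8, positions 142784882 to 142786539). It had folds of 7.20 and 6.57 in CFPAC1 (percentiles 77.8 and 71.2) and no HPAF2 peak. The second, 2707 bp beyond that end, differed between the CFPAC1 replicates (7.58 and 3.34, percentiles 80.3 and 4.63) and had a peak of fold 4.0 in HPAF2 replicate 2 only. The SLC2A1 element lay inside the gene at chr1:42940951-42941461, 15879 bp from its lower end. Its folds were 3.93 and 5.58 in CFPAC1 (percentiles 16.8 and 56.2), with 4.68 in HPAF2 replicate 2 (percentile 33.4) and no peak in replicate 1. Its percentiles in CFPAC1 enclosed the single HPAF2 value, and it was the weakest of the strongest elements of the 5 genes in CFPAC1.

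Of the 4 shared elements, 3 had both CFPAC1 percentiles above both HPAF2 ones (FGFBP1, TNS4 and the inner FAM83A element), where 37.4% of all shared elements did. The opposite held for 1, the outer FAM83A element, where 28.4% of all shared elements did.

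FOS was found in both libraries at 5 of the 8 elements with MYRF in both CFPAC1 libraries, against 64.7% of all such elements. Without CFPAC1 replicate 2 the count was 8 of 11, and with summits within 200 bp it was 3 of 8. Within 100 kb of the genes it was 5 of 16. These 5 were the FGFBP1 element, the shared TNS4 element, both LY6D elements and the SLC2A1 element. At FGFBP1 both factors ranked high: FOS had folds of 12.6 and 10.1 (percentiles 94.2 and 87.3), with its summit 64 bp from that of MYRF. At the shared TNS4 element FOS had folds of 5.84 and 7.60 (percentiles 57.7 and 75.2), both below the MYRF percentiles there, with summits 120 bp apart. At the first LY6D element the order was the opposite, with FOS folds of 10.02 and 11.9 (percentiles 88.6 and 91.7) above both MYRF percentiles and summits 130 bp apart. The same FOS peak also overlapped the second LY6D element, with its summit 794 bp away. At SLC2A1 FOS had folds of 8.4 and 10.03 (percentiles 81.6 and 86.9), also above both MYRF percentiles, with summits 534 bp apart. The FOS lists held 29087 and 36349 peaks, against 4743 and 4041 in the CFPAC1 MYRF lists. An equal percentile is therefore not an equal rank, and percentiles compare places within lists, not amounts of binding. Between mean percentiles, MYRF minus FOS was 5.53 points at FGFBP1, 18.2 at TNS4, -15.6 and -47.7 at LY6D and -47.8 at SLC2A1. Over all 1805 CFPAC1 elements with FOS the median was -9.60, with quartiles of -34.9 and 11.5. The elements with MYRF in only 1 CFPAC1 library are outside these counts, and each of them held FOS in both libraries. FOS folds there were 11.1 and 14.3 at FGFBP1. At TNS4 they were 16.3 and 15.7 (percentiles 97.8 and 96.6, inside the gene), 11.1 and 12.5, and 9.73 and 10.6.

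Neither FAM83A element held FOS in both libraries. The outer one overlapped a FOS peak in replicate 2 alone (fold 3.12, percentile 4.82, rank 34599 of 36349), and the inner one overlapped none. Strong MYRF elements without FOS were common, since 215 of 678 CFPAC1 elements at or above percentile 80 in both libraries (31.7%) had no FOS peak in both. In the reverse direction, the strongest FOS site near the 5 genes had no MYRF peak. It lay at chr4:15920556-15921970, 14106 bp downstream of FGFBP1, with folds of 32.5 and 31.5 and ranks 12 and 46 in the FOS lists. The next strongest FOS peaks in both libraries without MYRF lay at FAM83A (8.49 and 13.8, and 6.15 and 7.54), at TNS4 (8.78 and 11.3) and at SLC2A1 (5.16 and 9.79, and 6.22 and 6.63). Weaker ones lay at FGFBP1 (5.63 and 4.76, 4.92 and 3.91, and 4.3 and 4.44) and at TNS4 (4.58 and 6.23).

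The FGFBP1 window carried less H3K27ac in the knockout clone than in the control clone, and so did those of TNS4 and LY6D. The windows also reach other protein-coding genes: FGFBP2 and PROM1 for FGFBP1, IGFBP4 for TNS4, 7 genes for LY6D and 4 for FAM83A. Coverage and regions belong to the window and were not assigned to a gene. H3K27ac peaks covered 31.6 and 32.5 kb of the FGFBP1 window in the control replicates and 23.6 and 20.1 kb in the knockout replicates, a ratio of means of 0.682. All libraries of the control clone were above those of the knockout clone. Of 17808 genes with coverage in the control clone, 5.99% had a ratio that low, and the median ratio was 0.959. Among the 2122 genes with at least 20 kb in the control clone, 1.98% had a ratio that low and the median was 0.933. LY6D had 6.81 and 10.5 kb in the control clone, against 6.56 and 5.45 kb in the knockout clone (ratio 0.695), and here the lowest control value was close to the highest knockout value. TNS4 had 51.9 and 57.5 kb against 42.9 and 49.5 kb (ratio 0.845).

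FAM83A had 10.2 and 12.4 kb against 14.7 and 11.1 kb (ratio 1.14), and SLC2A1 41.7 and 43.1 kb against 40.5 and 41.9 kb (ratio 0.971). In both genes the clones overlapped. Lower coverage without overlap was thus seen in 3 of 5 members, where 25% of all genes with H3K27ac had it. Higher coverage without overlap was seen in 0, where 9.91% of genes had it. Over the whole genome the peaks covered 100.549 and 95.2 Mb in the control libraries against 87.9 and 92.9 Mb in the knockout libraries, so the knockout lists were also shorter in total.

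**Figure D4:**
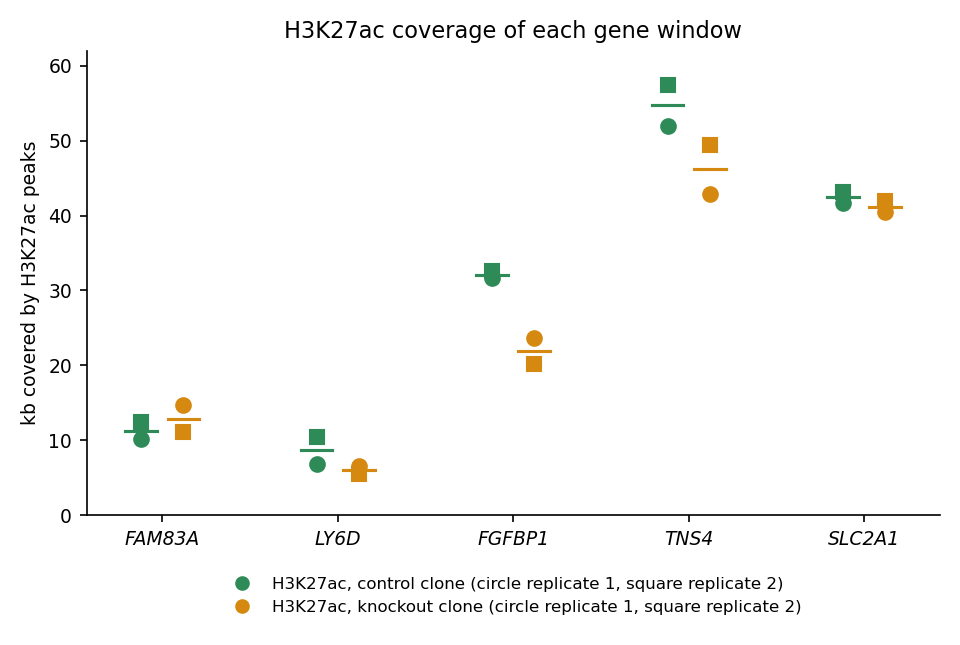
Length covered by H3K27ac peaks (vertical axis, kb) in the window of each gene in the control clone (green) and the knockout clone (orange), with circles for replicate 1, squares for replicate 2 and bars for means. FGFBP1 has 31.6 and 32.5 kb in the control clone and 23.6 and 20.1 kb in the knockout clone, while SLC2A1 lies between 40.5 and 43.1 kb in all 4 libraries.

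Overlapping H3K27ac peaks were merged into 112 regions, of which 51 were present in all 4 libraries. A region was counted as lost when both control libraries and no knockout library had it, and as gained in the opposite case. Lost regions numbered 9 of the 67 present in both control libraries, where 6.87% of all such regions were lost. FGFBP1 had 5 of them (of 20), TNS4 3 (of 23) and SLC2A1 1 (of 11). Gained regions numbered 1 of 54 (in the TNS4 window), where 3.7% of all regions were gained. By gene, 3 of 5 members had a lost region, against 21.9% of genes, and 1 of 5 a gained one, against 15.3% of genes. These counts need every library, and leaving out 1 raised most of them: 28 regions were lost without control replicate 1, 17 without control replicate 2 and 15 without knockout replicate 1, and 3 were gained without control replicate 2, 8 without knockout replicate 1 and 5 without knockout replicate 2. With peaks merged up to 500 bp apart 2 regions were lost, and with a -log10 q of at least 10 it was 3. In all, 121 genes (0.604%) had at least 5 lost regions in their window.

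The lost FGFBP1 regions were weak and small. Their control folds ranged from 2.12 to 5.54, their highest percentile was 52.4, and together they spanned 3839 bp. A MYRF element lay in 0 of the 9 lost regions. This count was nearly fixed beforehand, since each of the 12 elements was overlapped by H3K27ac peaks in all 4 libraries. Of the regions present in all 4 libraries, 7 of 11 at FGFBP1 covered fewer bases in both knockout libraries than in both control libraries, and 0 covered more. Over the 5 genes 17 of 51 regions were narrower and 4 wider, 3 of the wider ones at FAM83A. Of all 54063 regions in 4 libraries, 24% were narrower and 11.1% wider in this sense. The comparisons of width and fold over regions were chosen after the values were seen.

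The region that holds the shared MYRF element of FGFBP1 (chr4:15909212-15915826) covered 6188 and 6171 bp in the control clone, against 5124 and 3974 bp in the knockout clone. The strongest H3K27ac peak overlapping the element had folds of 13.5 and 20.8 against 23.1 and 11.5. The clones overlapped in this value, while the covered length did not overlap. These are also the highest folds of the whole region, so they do not give the strength at the MYRF site itself. The strongest H3K27ac region of the gene's window (chr4:15904211-15908208) had folds of 36.0 and 40.4 (percentiles 99.97 and 99.96) in the control clone, against 16.4 and 28.8 (percentiles 93.0 and 99.8) in the knockout clone. This strongest region also held the MYRF element found in CFPAC1 replicate 1 only (fold 6.52), with FOS folds of 11.1 and 14.3. The region with the strong FOS site had 30.0 and 29.2 against 22.2 and 18.3. The region over the promoter stretch printed above (chr4:15938503-15939444) had 6.12 and 5.03 (percentiles 58.8 and 43.7) against 3.54 and 3.24 (percentiles 10.4 and 6.61). These last 3 regions had both knockout folds below both control folds, as did 6 of the 11 FGFBP1 regions found in all 4 libraries, and 0 of the 11 had the opposite order. Over the 5 genes 13 of 51 regions had lower and 5 higher knockout folds in this sense, where 19.7% and 13.3% of all such regions did.

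**Figure D5:**
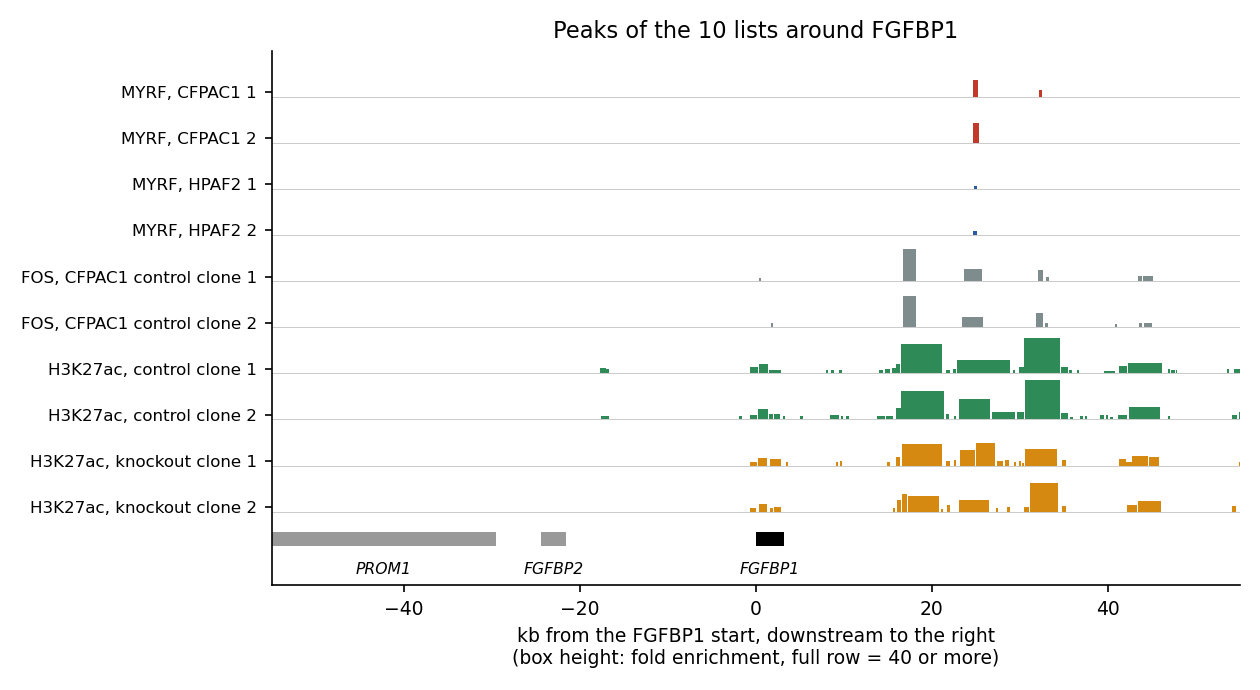
Peaks of the 10 lists (rows) around FGFBP1 in kb from the gene start, with downstream to the right, box height showing the fold enrichment and annotated protein-coding genes in the lowest row. MYRF in CFPAC1 (folds 16.7 and 20.2) lies in a cluster of downstream H3K27ac regions, beside a FOS site of 32.5 and 31.5 without MYRF, and most of these regions are narrower in the knockout rows.

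At the other elements with MYRF in both CFPAC1 libraries, the fold of the strongest overlapping H3K27ac peak was compared. The summit of such a peak may lie outside the element. These folds overlapped between the clones except at the shared TNS4 element. At the shared TNS4 element the folds were 15.3 and 18.7 in the control clone, against 9.10 and 14.0 in the knockout clone, with both knockout percentiles (75.2 and 91.7) below both control ones (93.7 and 94.95). Over the whole H3K27ac region that holds it (chr17:40513033-40523975, 10943 bp), the clones overlapped, with highest folds of 15.3 and 18.7 against 17.6 and 20.1. At the outer FAM83A element the folds of the overlapping peaks were 8.49 and 10.1 against 8.38 and 8.52, and at the inner one 12.1 and 19.9 against 23.4 and 15.5. At the first LY6D element they were 15.6 and 24.7 against 20.8 and 13.1, and at SLC2A1 20.6 and 26.9 against 23.01 and 10.9. At LY6D and SLC2A1 knockout replicate 1 lay between the control values and knockout replicate 2 below both. At the upper-coordinate end of SLC2A1, which is its start, the folds were 24.2 and 28.7 against 20.3 and 29.0. At the upper end of TNS4 they were 18.9 and 14.2 against 16.6 and 12.1. Within 1 kb of the upper end of LY6D knockout replicate 2 had a fold of 3.34, below the other 3 libraries (15.6, 24.7 and 20.8). Those 3 values are the highest folds of the region chr8:142786985-142790843, which also holds the LY6D MYRF elements. In that region knockout replicate 2 had a highest fold of 13.1, so the low value depends on where its peaks were split.

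The other 20 genes of the basal-like program included 8 with a MYRF peak in both CFPAC1 libraries, 7 with one in both HPAF2 libraries and 4 with a shared element (KRT15, KRT7, LEMD1 and S100A2). Of all protein-coding genes, 16.6%, 16.7% and 9.2% had these. Neighbouring genes with a common peak were counted separately. FOS was found near 17, where 67.7% of all genes had it. A lost H3K27ac region was found for 3 and a gained one for 2 (21.9% and 15.3% of all genes). Lower H3K27ac coverage without overlap in the knockout clone was seen for 4 and higher for 1 (25% and 9.91% of all genes). These counts are over the 19 protein-coding ones, since the lncRNA UCA1 was not analysed here. The strongest was KRT15, a keratin of basal epithelial cells, with MYRF folds of 39.6 and 47.3 in HPAF2 and of 24.0 and 25.2 in CFPAC1, which like the outer FAM83A element stood near the top of all 4 lists. LEMD1 had folds of 9.53 and 11.5 in HPAF2 and of 5.59 and 5.33 in CFPAC1, and S100A2, a calcium-binding protein of squamous epithelium, 7.61 and 7.0 in HPAF2 and 6.62 and 7.90 in CFPAC1. In CFPAC1, KRT17 had 9.09 and 9.27, KRT7 7.03 and 9.51, and the protease inhibitor gene CST6 5.33 and 7.05. The neighbours SERPINB3 and SERPINB4 shared a CFPAC1 peak of 6.44 and 5.80. Highest folds in HPAF2 were 8.59 and 5.66 for KRT17 and 7.32 and 8.84 for KRT7. CST6 had no HPAF2 peak, and SERPINB3 and SERPINB4 had one in replicate 2 only (3.89).

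Patterns were also compared over the 10 libraries, as the Euclidean distance between the highest percentiles of any peak in each gene's window. Nearest to FGFBP1 were ARID3B (distance 10.5) and LSM10 (10.6), both with no MYRF peak in HPAF2. Nearest to TNS4 were KIAA1755 (10.4) and TRA2B (10.9), and nearest to FAM83A were B4GALT5 (10.1) and KIAA0040 (11.96). LY6D was nearest to VASP (12.4) and OPA3 (12.5), whose windows share MYRF and FOS peaks, and SLC2A1 to FUT8 (13.8) and LGALS3BP (19.6). SLC2A1 thus had the least close neighbours of the 5 genes.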

How the data were processed

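The data are 10 ChIP-seq peak lists, and 1 HPAF2 input sample that has no list was not used here. Cells were fixed in 1% formaldehyde for 10 min and precipitated with 10 µg of antibody, per the labels' protocols. The authors' tools were MACS2 2.1.0.20150731, SAMtools, Bowtie2 2.2.6 and Trimmomatic 0.38, on GRCh38 (hg38), per the submitters' processing notes. Each deposited list belongs to 1 library and gives a fold enrichment (a ratio), a -log10 p, a -log10 q (lowest 1.30 to 1.33) and a score, the whole part of 10 times the -log10 q. Between replicates of a group, 0 peaks had the same interval and fold.

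A peak belonged to a gene when its summit lay in the span plus 50 kb. Elements joined MYRF peaks overlapping by at least 1 bp, and FOS counted where a peak overlapped the element. Coverage is the union of peaks clipped to the window. Gene spans came from the RefSeq table of GRCh38.p14, which gives no strand, and strands of FGFBP1 and SLC2A1 from its promoter table. The named genes are all 5 members, up to 8 other program genes with MYRF in both replicates of a line by highest percentile, and the 2 most similar genes per member. The members, lists and rules were chosen with earlier results of these data known. Alternatives covered the window, a -log10 q of at least 10, summit distance, region merging, the ranking and leaving out each replicate. The joining of peaks into elements was tested on simulated intervals, and merged regions checked with bedtools 2.31.1 differed in 0 cases. Computation used Python 3.11.15, numpy 2.4.6, pandas 2.3.3 and matplotlib 3.10.9. The count over the whole leukocyte list is not reported here.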

Additional observations from a re-analysis of the deposited data

How the results depend on the processing

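The lists hold no read counts, so a missing peak cannot be told from low depth, and depth limits every absence given here. No paired analysis was possible because no result comes from a test, and the labels tie the replicate numbers to no shared culture or day. Within 5 kb of the genes, CFPAC1 MYRF was found for 3 members, HPAF2 MYRF for 1, a shared element for 1 and FOS for 3, with FOS at 3 of 5 MYRF elements, 1 lost region and 0 gained ones. Within 100 kb, 2 regions were gained and FOS lay at 5 of 16 MYRF elements, a lower share than the 5 of 8 within 50 kb, and the other counts stayed within 1.5 times. With a -log10 q of at least 10, CFPAC1 MYRF was found for 3 members, HPAF2 MYRF for 1 and a shared element for 1, FOS lay at 2 of 4 MYRF elements, and 3 regions were lost and 2 gained. With summits within 200 bp, FOS lay at 3 of 8 MYRF elements. With H3K27ac peaks merged up to 500 bp apart, 2 regions were lost. Leaving out each replicate gave 3 to 5 members with HPAF2 MYRF and 3 to 5 with a shared element (5 without HPAF2 replicate 1), and FOS at 5 to 8 MYRF elements (8 of 11 without CFPAC1 replicate 2). Lost regions ranged from 10 to 28 (28 without control replicate 1, 17 without control replicate 2, 15 without knockout replicate 1) and gained ones from 1 to 8 (8 without knockout replicate 1), since fewer libraries are needed for a call. Between lines, the gap of the inner FAM83A element was 12.9 points when ranked by -log10 q and 47.3 among elements found in both replicates, and that of the outer one -6.29 among elements found in both replicates. Over all rankings and left-out libraries the gap of FGFBP1 lay between 86.3 and 95.6 and that of TNS4 between 54.0 and 63.1. The FGFBP1 coverage ratio was 0.813 within 5 kb and 0.627 to 0.737 without 1 library, alternatives added after seeing the data.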
